A study of Glycine max with 6 samples.

Results

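Leghemoglobin genes were examined in soybean nodules grown at low and high phosphorus (P). The set held 4 genes of the 39712 listed in at least 1 library. These were taken by gene identifier with no threshold on a measured value, but earlier results of these data were known. They were Glyma.10G198800, Glyma.10G199000 and Glyma.10G199100, which lay side by side on chromosome 10, and Glyma.20G191200 on chromosome 20. LP nodules came from plants supplied with 25 KH2PO4 and HP nodules from plants supplied with 500 KH2PO4. The sample labels state these concentrations in mM and the methods of the study in μM. All plants were soybean (Glycine max) genotype YC03-3 inoculated with rhizobium strain USDA110. Nodules of more than 3 mm were taken on day 25, and there were 3 LP and 3 HP libraries, each from the nodules of 2 plants pooled together. Smaller nodules were therefore not sampled.

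Leghemoglobin is the red oxygen-binding protein of legume nodules and is made in the cells that house nitrogen-fixing bacteroids. It carries oxygen to the respiring bacteroids while it keeps free oxygen low enough for nitrogenase, an enzyme that oxygen destroys. Each molecule holds a heme group with an iron atom, so its supply depends on heme synthesis and on iron. Soybean carries several closely similar leghemoglobin genes.

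The values are FPKM, the fragments of a gene divided by the length of its model and by the total of the library, and they were deposited for every gene above 0. Library totals of 17716117 to 18909026 fragments were recovered from these values, and whole fragment numbers for 99.4% of genes followed from the totals. Across genes, log2 values correlated at 0.966 to 0.977 between libraries of a treatment and at 0.911 to 0.936 between treatments. The deposited files carry no gene descriptions, and the RefSeq gene table at hand shares 0 identifiers with them. That table lists 4 protein-coding leghemoglobin genes, 3 on chromosome 10 and 1 on chromosome 20, which is the same division between chromosomes, but its names could not be assigned to single genes here. It also lists 1 leghemoglobin pseudogene on chromosome 10. That the 4 genes are leghemoglobins thus rests on the list of identifiers by which they were taken. The shared division between chromosomes does not identify them, and their identity was not tested here.

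On the Wm82.a2.v1 assembly, the genes of chromosome 10 were all on the minus strand. Glyma.10G198800 spanned 42995962 to 42997094, Glyma.10G199000 spanned 43004558 to 43005947 and Glyma.10G199100 spanned 43009251 to 43011119. The gaps between them were 7463 and 3303 bases. Glyma.20G191200 was on the plus strand of chromosome 20, from 42993081 to 42994294. The gene model lengths behind the FPKM values were 688, 709 and 839 bases for the chromosome 10 genes in that order and 708 bases for Glyma.20G191200. None of the 4 overlapped another listed gene. How fragments that match more than 1 leghemoglobin copy were assigned is not given in the sources used here, so the division of fragments among the 4 genes is less certain than their sum.

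The 4 genes were among the 6 highest of all genes in each of the 6 libraries. Glyma.10G198800 ranked 2, 2 and 2 in the LP libraries and 1, 2 and 2 in the HP libraries. Glyma.10G199100 ranked 3, 3 and 3 at LP and 3, 1 and 4 at HP, and Glyma.10G199000 ranked 4, 4 and 4 at LP and 2, 3 and 3 at HP. Glyma.20G191200 ranked 6, 6 and 6 at LP and 5, 5 and 6 at HP. Its mean over the 6 libraries was 3179 times the median listed gene, which stood between 3.66 and 4.21 FPKM. In every LP library the highest gene was Glyma.13G364400, for which no description was at hand, with 26027, 25088 and 26840 FPKM at LP and 19534, 17704 and 24267 FPKM at HP. Its log2 difference of 0.35 did not pass the test (limma, adjusted p = 0.0970).

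Glyma.10G198800 had 23077, 24010 and 25240 FPKM in the LP libraries, against 21676, 22737 and 22011 FPKM in the HP libraries. Every LP library was above every HP library, although the lowest LP value and the highest HP value were close. Such a lack of overlap in either direction was seen in 44.5% of all genes tested. The means were 24109 ± 1085 FPKM at LP and 22142 ± 542 FPKM at HP (SD, n = 3 each), a 1.09-fold level at LP with a 95% interval of 0.923 to 1.28. This was a log2 difference of 0.12 with a standard error of 0.10 (limma on log2(FPKM + 0.1), adjusted p = 0.411).

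Glyma.10G199000 had 19551, 21786 and 22156 FPKM at LP, against 19785, 20658 and 20589 FPKM at HP. The groups overlapped, with the lowest and the 2 highest of the 6 values all at LP. The means were 21164 ± 1409 FPKM at LP and 20344 ± 485 FPKM at HP (SD, n = 3 each). The LP level was 1.04-fold that at HP, with an interval of 0.875 to 1.23 (limma, log2 difference 0.06, standard error 0.11, adjusted p = 0.733).

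Glyma.10G199100 had 22969, 22081 and 24851 FPKM at LP, against 19711, 25713 and 18446 FPKM at HP. The HP libraries held both the highest and the lowest value of this gene, so the groups overlapped. The means were 23301 ± 1414 FPKM at LP and 21290 ± 3882 FPKM at HP (SD, n = 3 each), and the fold of 1.10 had an interval of 0.872 to 1.40 (limma, log2 difference 0.14, standard error 0.15, adjusted p = 0.501). HP replicate 2 set much of this spread. Without it the log2 difference was 0.29 and the gene still did not pass (limma, adjusted p = 0.112).

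Glyma.20G191200 had 12146, 12291 and 13099 FPKM at LP, against 11722, 12916 and 13296 FPKM at HP. The LP values lay wholly inside the range of the HP values. The means were 12512 ± 514 FPKM at LP and 12644 ± 821 FPKM at HP (SD, n = 3 each), which gave a fold of 0.99 with an interval of 0.832 to 1.18 (limma, log2 difference -0.01, standard error 0.11, adjusted p = 0.936).

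**Figure D1:**
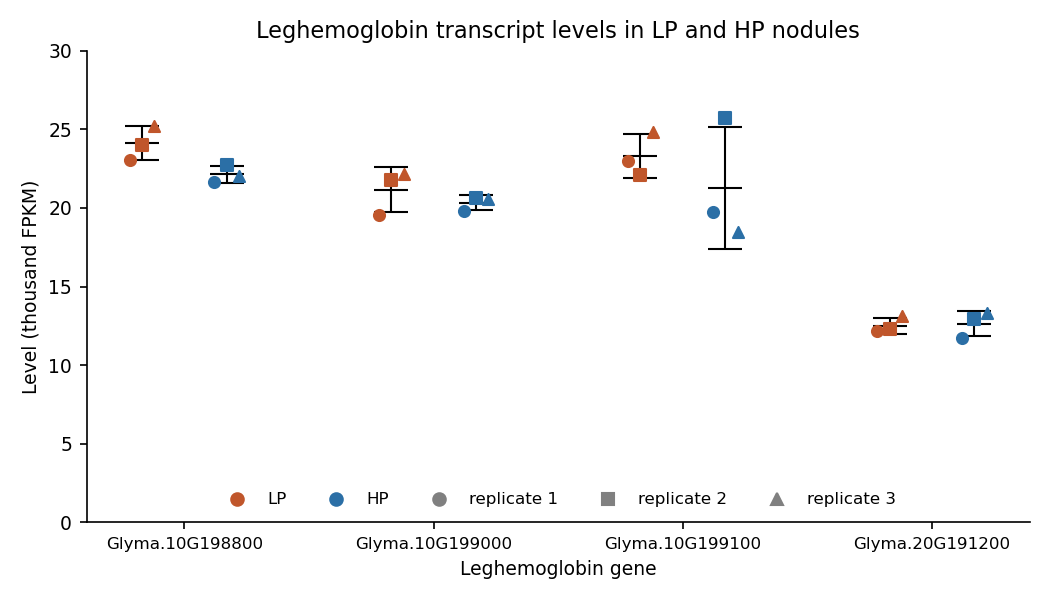
FPKM of each leghemoglobin gene in each library (symbols), with the mean and SD of the 3 libraries of a treatment, LP to the left of HP. Glyma.10G198800 is the one gene of the 4 whose LP libraries, from 23077 FPKM up, all lie above its HP libraries, and the HP values of Glyma.10G199100 spread from 18446 to 25713 FPKM.

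Across all genes, 7.73% were called, that is, differed at least 2-fold with an adjusted p no greater than 0.05, and 3.34% were higher and 4.39% lower at LP. This balance turned under median-of-ratios scaling (1419 higher and 669 lower), under quantile scaling (1298 higher and 806 lower) and with 1 added to the FPKM (751 higher and 602 lower). None of the 4 leghemoglobin genes was called (limma, 0 of 4). Without the fold threshold, 25.7% of all genes passed at the adjusted p and again 0 of the 4. In addition, 0 had an unadjusted p under 0.05 in this fit, and voom on the recovered fragments also called 0. Under median-of-ratios scaling the 95% interval of the log2 difference lay above 0 for Glyma.10G198800 (0.024 to 0.595). The same held for Glyma.10G199100 without HP replicate 2 (0.015 to 0.560). In the fit on FPKM without further scaling, the intervals of all 4 genes excluded a 2-fold difference in either direction, the widest reaching 1.40-fold. Over the alternatives the highest upper bound was 1.61-fold, for Glyma.10G199100 under median-of-ratios scaling. An interval that includes no change does not show that the levels were equal. In nodules taken as a whole, the number of infected cells and the leghemoglobin RNA in each of them cannot be told apart, whatever the level measured.

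The median log2 difference over all 31181 genes tested was -0.18, so that most genes were a little lower at LP on the FPKM scale. Relative to this median, the log2 differences were 0.30 for Glyma.10G198800, 0.24 for Glyma.10G199000, 0.33 for Glyma.10G199100 and 0.17 for Glyma.20G191200. Median-of-ratios scaling moved the median of all genes to 0.00 and gave log2 differences of 0.31, 0.24, 0.33 and 0.17 for the genes in the same order. Quantile scaling turned the chromosome 10 genes to -0.04, -0.16 and -0.02. The direction of these small differences therefore depended on the scaling, and none was called under either of these scalings. Among the 27 other genes averaging 1000 FPKM or more, the median log2 difference was 0.27, and 5 were called higher and 0 lower at LP.

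**Figure D2:**
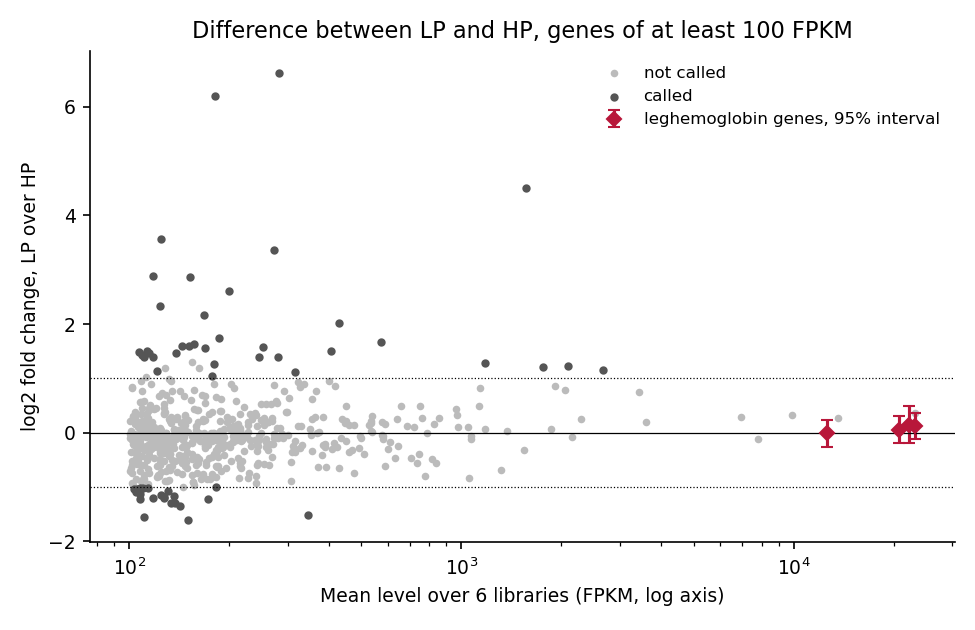
Log2 fold change of LP over HP (limma) against mean FPKM on a log axis for the 622 genes averaging 100 FPKM or more, with called genes in dark grey, dotted lines at the fold threshold and the 4 leghemoglobin genes with 95% intervals. The leghemoglobin genes lie at the far right, between -0.01 and 0.14, and the median of the genes plotted is -0.07.

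Summed over the 4 genes, leghemoglobin stood at 77744, 80168 and 85345 FPKM in the LP libraries, against 72894, 82024 and 74341 FPKM in the HP libraries. The sum made up 12.5%, 12.8% and 13.4% of the total FPKM at LP and 11.8%, 12.7% and 12.1% at HP. The groups overlapped in both measures, because HP replicate 2 was above 2 of the LP sums and 1 of the LP shares. The mean shares were 12.9 ± 0.453% at LP and 12.2 ± 0.456% at HP (SD, n = 3 each), 0.746 percentage points apart, and this difference was given no test. Without LP replicate 3 it was 0.494 percentage points. The summed FPKM differed by 4666 between the treatment means, by 2536 without LP replicate 3, by 2903 without HP replicate 1 and by 7468 without HP replicate 2, and by 14921 after median-of-ratios scaling. Counted as fragments without regard to length, the 4 genes took 5.76%, 5.92% and 6.32% of the library at LP and 5.38%, 6.10% and 5.46% at HP. HP replicate 2 was again above 2 of the LP libraries, so the groups overlapped here too.

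**Figure D3:**
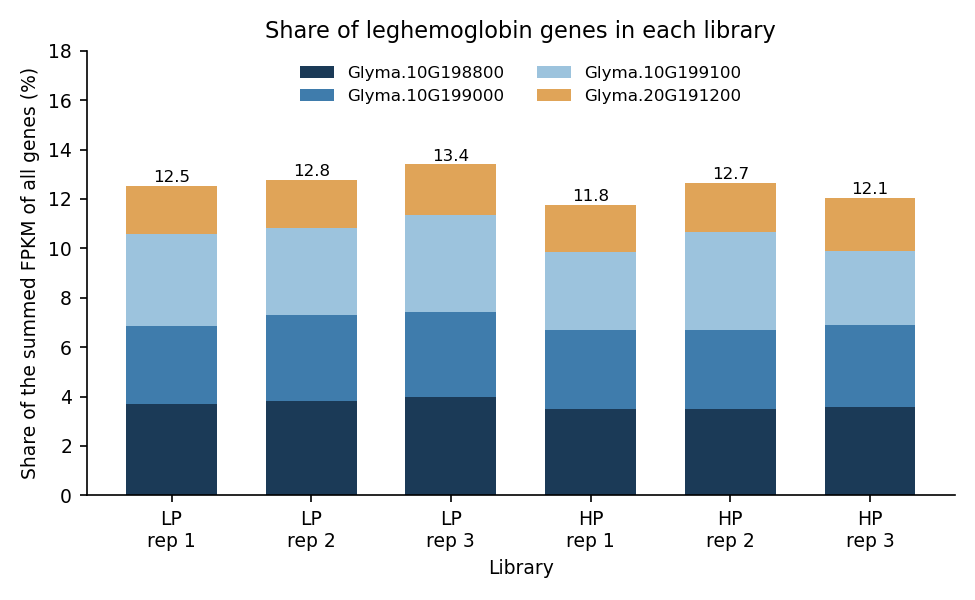
Share of total FPKM (percent) taken by each leghemoglobin gene, stacked for each library, LP libraries to the left of HP libraries. The stacks reach 12.5% to 13.4% at LP and 11.8% to 12.7% at HP, and Glyma.20G191200 is the thinnest layer in all 6.

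The 4 genes did not stand at one level. Per length, on the FPKM scale, Glyma.20G191200 was the lowest in 6 of 6 libraries, and its LP and HP values were all below those of every chromosome 10 gene. Glyma.10G198800 was above Glyma.10G199000 in 6 of 6 libraries and above Glyma.10G199100 in 5 of 6, the exception being HP replicate 2. Glyma.10G199000 and Glyma.10G199100 had no fixed order, the first being above the second in 2 of 6 libraries. The order of these neighbours is a description of the 6 libraries and was given no test.

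In fragments, which are not divided by length, Glyma.10G199100 was above Glyma.10G198800 in 6 of 6 libraries. It has the longest model of the 4, and the fewest fragments of any library were 289226 for Glyma.10G199100 and 271355 for Glyma.10G198800. The fewest for Glyma.20G191200 were 151006, whose 95% Poisson interval reaches 0.505% to either side. Counting error was thus far below the spread between replicates. This interval covers counting error only.

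Among the 4 genes, Glyma.10G198800 made up 29.7 ± 0.194% of the leghemoglobin FPKM at LP and 29.0 ± 1.13% at HP (SD, n = 3 each). Glyma.10G199100 made up 28.7 ± 1.05% at LP and 27.7 ± 3.32% at HP. Glyma.10G199000 made up 26.1 ± 1.02% at LP and 26.7 ± 1.32% at HP. Glyma.20G191200 made up the remaining 15.4 ± 0.164% at LP and 16.6 ± 1.15% at HP. Its highest share at LP, 15.6%, was only just below its lowest share at HP, 15.7%, and these shares were given no test. The FPKM levels of this gene overlapped between the treatments. In FPKM, a lack of overlap was seen in 44.5% of all genes tested.

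Ratios between 2 leghemoglobin genes of the same library do not depend on the total of that library, and they ask whether the genes differed unequally between treatments. The log2 ratio of Glyma.10G198800 over Glyma.20G191200 was 0.93, 0.97 and 0.95 at LP, against 0.89, 0.82 and 0.73 at HP. Every LP ratio was above every HP ratio, with a difference of 0.14 (two-sided exact permutation test, p = 0.1, adjusted p = 0.3 over 6 pairs). The smallest p that 3 against 3 libraries allow is 0.1, so no pair could pass at 0.05. The ratio of Glyma.10G198800 over Glyma.10G199000 also did not overlap, with 0.239, 0.140 and 0.188 at LP against 0.132, 0.138 and 0.096 at HP (exact permutation test, p = 0.1, adjusted p = 0.3). Its lowest LP ratio and highest HP ratio, 0.140 and 0.138, were almost equal. This ratio and the one before it share Glyma.10G198800, so they are not separate observations. How often the ratios of other gene pairs lack overlap was not examined. The other 4 ratios overlapped, with differences between -0.09 and 0.16 and exact adjusted p-values of 0.4 to 0.9.

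**Figure D4:**
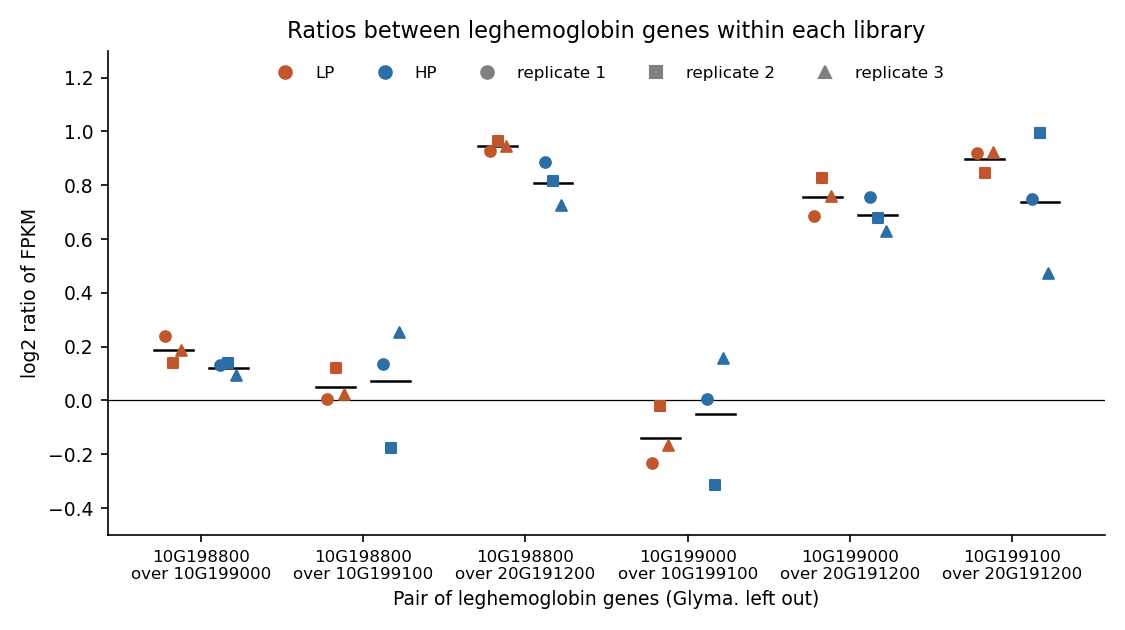
Log2 ratio of FPKM between 2 leghemoglobin genes of the same library for the 6 pairs, LP to the left of HP, with a symbol for each library and short lines for the means. The ratios of Glyma.10G198800 over Glyma.20G191200 lie at 0.93 to 0.97 at LP and at 0.73 to 0.89 at HP.

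The spread between replicates was small for 3 of the 4 genes. Within treatments, the SD of log2 FPKM was 0.05 for Glyma.10G198800, 0.07 for Glyma.10G199000 and 0.08 for Glyma.20G191200, against a median of 0.16 over the 622 genes averaging 100 FPKM or more. Of those 622 genes, 1.77% had a smaller SD than Glyma.10G198800. Glyma.10G199100 had an SD of 0.19, and its highest HP library was 1.39 times its lowest. Over the 6 libraries, the levels of Glyma.10G198800 and Glyma.10G199000 correlated at r = 0.79, the highest of the 6 pairs, and those of Glyma.10G199100 and Glyma.20G191200 at 0.17, the lowest. These correlations describe 6 libraries that share the treatments and their library totals.

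The genes whose pattern over the 6 libraries was most like each member were taken from 9969 genes averaging 10 FPKM or more, by the Pearson correlation of log2(FPKM + 0.1). They were Glyma.17G107400 for Glyma.10G198800 (r = 0.994), Glyma.08G353600 for Glyma.10G199000 (r = 0.971), Glyma.04G238800 for Glyma.10G199100 (r = 0.993) and Glyma.09G036300 for Glyma.20G191200 (r = 0.973). No description was at hand for any of them. With so many candidates and 6 libraries high correlations are common, and 129 genes passed 0.9 for Glyma.10G198800 but 9 for Glyma.20G191200.

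The high level was not shared by the genes around the 2 loci. Within 10 gene steps of a leghemoglobin gene, counted by identifier, 31 other genes were listed, and the highest of them, Glyma.20G191100, had a mean of 31.9 FPKM over the 6 libraries. The lowest leghemoglobin gene was 394 times that level. Between Glyma.10G198800 and Glyma.10G199000, the identifier Glyma.10G198900 had no row in any library. Of the 29 neighbours tested, 3 were called higher and 3 lower at LP and 23 were not called, where 7.73% of all genes tested were called. The neighbours were not tested as a group.

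The largest of these differences with a value in both treatments was that of Glyma.10G197800, described as a 4-coumarate–CoA ligase-like protein. It had 22.6, 23.1 and 20.4 FPKM at LP, against 0.701, 0.779 and 0.854 FPKM at HP, and its log2 difference was 4.66 (limma, adjusted p = 1.1e-06). The 1 neighbour called lower on chromosome 10 was Glyma.10G198200, described as a putative glycine-rich cell wall structural protein. It had a mean of 0.628 FPKM at LP and 1.83 FPKM at HP, a log2 difference of -1.43 (limma, adjusted p = 0.0104). On chromosome 20, Glyma.20G192100 had a mean of 4.24 FPKM at LP, and it had no row in the 3 HP libraries, where it was set to 0. Glyma.20G190200 had a mean of 1.65 FPKM at LP and 3.91 FPKM at HP, a log2 difference of -1.20 (limma, adjusted p = 0.0025).

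**Figure D5:**
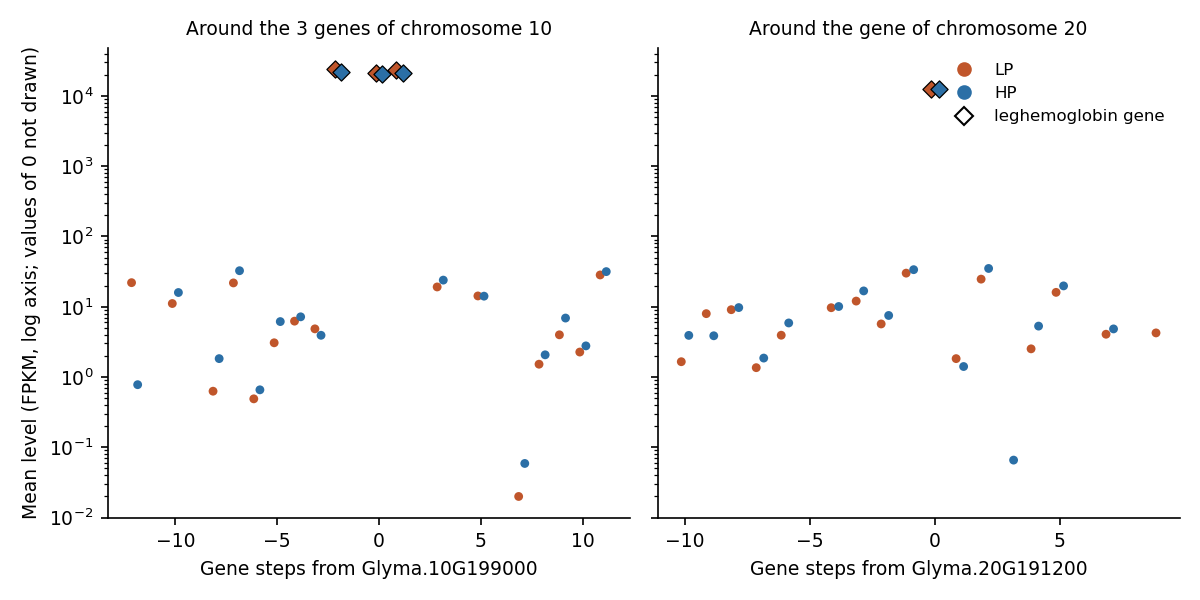
Mean FPKM of each treatment on a log axis (means of 0 are not drawn) for the genes within 10 gene steps of the leghemoglobin genes on chromosomes 10 and 20, by position in gene steps, LP to the left of HP. The leghemoglobin genes stand at means of 12512 FPKM and more, and the highest neighbour point is Glyma.20G191400 at HP, at 35.1 FPKM.

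Genes of heme synthesis, heme breakdown and other hemoglobins bear on leghemoglobin, but 0 of them could be found by description. For enzymes that protect leghemoglobin from oxidation, 1 gene matched by the wording of its description, Glyma.11G196600, whose description names monodehydroascorbate reductase together with carbonic anhydrase. It had 2.43, 0.800 and 0.318 FPKM at LP, against 0.0551, 0.112 and 0 FPKM at HP. It was not tested, because it did not reach 0.5 FPKM in the 3 libraries needed. Descriptions came only from the protein matches of the study's own list of differing genes. The described genes were thus already chosen as differing in these same libraries. Being called was therefore largely fixed in advance for the genes that follow, here and in the next paragraph. Their counts and p-values are not independent evidence of a change or of its direction. The counts cannot be set against the 7.73% called over all genes. Of the iron list, 2 of 2 described genes were higher at LP. Ferritin-2 (Glyma.03G050100), an iron storage protein, had 56.7, 41.1 and 61.4 FPKM at LP, against 20.3, 27.3 and 26.5 FPKM at HP, a log2 difference of 1.09 (limma, adjusted p = 0.0051). A vacuolar iron transporter homolog (Glyma.16G168200) had means of 14.2 ± 3.06 FPKM at LP and 5.08 ± 2.35 FPKM at HP (SD, n = 3 each), a log2 difference of 1.57 (limma, adjusted p = 0.0227).

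Of 3 described early nodulins, genes named for their expression in nodules, 1 was called higher and 2 lower at LP. Early nodulin-12A (Glyma.11G155000) had 181, 111 and 116 FPKM at LP, against 31.3, 75.5 and 32.9 FPKM at HP, a log2 difference of 1.63 (limma, adjusted p = 0.0170). The pair described as early nodulin-70 had log2 differences of -2.06 (Glyma.11G238500) and -1.84 (Glyma.18G018900). Of 3 CASP-like genes, whose family includes proteins of the root endodermis, 1 was called higher, 1 lower and 1 was not called. Their summed level was 6.73 to 20.8 FPKM at LP and 6.0 to 7.33 FPKM at HP, and its part in the leghemoglobin values was not tested. Markers of uninfected cells, of senescing nodules and of photosynthetic tissue had 0 described genes, so their levels were not analysed here.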

How the data were processed

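RNA of nodules was enriched for poly(A) and sequenced for 3 LP and 3 HP libraries. The authors aligned reads with HISAT2 2.1.0 on an index built in Bowtie2 2.2.3, estimated abundance with Cufflinks, and deposited FPKM values per replicate for genes above 0. Genes without a row in a library were set to 0. The authors tested with DESeq2 1.6.3, and none of their comparison values was used. The p-values measure the spread between pools of 2 plants.

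Tests were two-sided on log2(FPKM + 0.1). The tool was limma 3.58.1 under R 4.3.3, its eBayes step set to trend and robust (statmod 1.5.0). It was fitted on the 31181 genes that reached 0.5 FPKM in no fewer than 3 libraries, and p-values were adjusted by Benjamini-Hochberg. Calls needed an adjusted p up to 0.05 together with an absolute log2 fold change of 1 or above. The added 0.1 understates the changes of low genes. Library totals were recovered from the FPKM values (relative tolerance 1e-06), and whole fragments then followed for 99.4% of genes.

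The 4 members and all lists were chosen with earlier results of these data known. Genes named are the 4 members, the leading genes by level, list members, neighbours and the genes most alike each member. Neighbours shown were picked by size of difference after their values were seen. Ratios between members were tested by exact permutation. Alternatives were other added constants, FPKM minimums, scalings, weights and thresholds, a replicate block, each library left out and voom on the recovered fragments, the last chosen after seeing the data. Figures were drawn with matplotlib 3.10.9, and other steps used scipy 1.17.1, pandas 2.3.3, numpy 2.4.6 and Python 3.11.15. The code was tested on simulated data. Sequences were not used here.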

Additional observations from a re-analysis of the deposited data

How the results depend on the processing

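None of the 4 leghemoglobin genes was called under any of the 18 alternatives run for each, and the lowest adjusted p was 0.112 (Glyma.10G199100 without HP replicate 2). The 95% interval lay above 0 in that setting and for Glyma.10G198800 with median-of-ratios scaling. Quantile scaling, which follows only rank for genes this high, turned Glyma.10G198800 to -0.043, Glyma.10G199000 to -0.16 and Glyma.10G199100 to -0.020. Glyma.20G191200 turned to 0.17 with median-of-ratios scaling and to 0.025 with array weights. With each library left out, the log2 differences ran from 0.09 to 0.15, 0.02 to 0.11 and 0.05 to 0.29 for the chromosome 10 genes and from -0.068 to 0.023 for Glyma.20G191200, which turned to 0.01 when LP replicate 1 was left out, to 0.0025 for HP replicate 2 and to 0.023 for HP replicate 3. The ratio of Glyma.10G198800 over Glyma.10G199100 ran from -0.15 to 0.070, turning to 5.9e-05 when LP replicate 1 was left out, to 0.01 for HP replicate 1 and to 0.070 for HP replicate 3, and that of Glyma.10G199000 over Glyma.10G199100 ran from -0.22 to 0.016, above 0 when HP replicate 3 was left out. The summed FPKM difference was 4666, 2536 to 7468 with a library left out, and 14921 with median-of-ratios scaling. The share difference ran from 0.494 to 0.994 percentage points.

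Over all genes, 2411 were called, 1041 higher and 1370 lower at LP (43.2% higher). With 1 added there were 1353, of which 751 were higher and 602 lower (55.5% higher). Median-of-ratios scaling gave 1419 higher and 669 lower (68.0% higher), and quantile scaling 1298 higher and 806 lower (61.7% higher). The adjusted p alone gave 8004, 2110 higher and 5894 lower. With a library left out, 1876 to 2336 were called, 726 to 1146 higher and 1001 to 1442 lower. The replicate number as a block gave 2334 calls (1046 higher and 1288 lower) and adjusted p-values of 0.374, 0.693, 0.496 and 0.926 for the 4 genes. Same-numbered libraries did not deviate together (r = 0.17, -0.02 and -0.15), so the numbers were not taken as pairs. Voom on the recovered fragments gave 2494 calls. The causes of these changes were not tested. For the 4 leghemoglobin genes counting error was below the spread between replicates, and depth as a limit for other genes was not tested.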

Other observations

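Glyma.20G024200, the one other gene among the 6 highest by mean beside Glyma.13G364400 and the leghemoglobin genes, had means of 14900 ± 1083 FPKM at LP and 12343 ± 1269 FPKM at HP (SD, n = 3 each). The 10 highest genes of each library together held 23.5%, 23.9% and 25.2% of the total FPKM at LP, against 20.7%, 21.7% and 22.5% at HP, and every LP library was above every HP library. The shares of the leghemoglobin genes, which are part of these sums, overlapped between the treatments. These shares were given no test.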
